A study of Mus musculus with 3 samples.

Results

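The miRNAs described here are both arms of the 6 hairpins miR-770, miR-673, miR-493, miR-337, miR-540 and miR-665, which lie between the start of Meg3 and the end of Rtl1 in the imprinted Dlk1-Dio3 region of the mouse. They were chosen by hairpin name, by a rule that uses no levels, though with earlier results of these data known. All 12 arms were among the 693 mature miRNAs listed in the libraries. Short RNA was sequenced from TAG1 cells, a mouse ES cell line derived from J1 cells in which doxycycline (Dox) induces Alk4*, a constitutively active Activin/Nodal receptor whose signal phosphorylates the transcription factors Smad2/3 (giving p-Smad2/3). The transgene is present in the cells of all 3 groups. Cells of the 0 hr group had no treatment and grew with 20% FBS. Those of the 16 hrs SB group were held for 16 hrs in 30 µM SB, a receptor inhibitor that the labels spell SB-431541, in serum-free medium with 20% KSR, a serum replacement. In the 16+12 hrs group this was followed by 12 hrs of Dox at 1 µg/µl, again with 20% KSR. Each group was 1 library from this 1 cell line, pooled over 2 sequencing runs, so no difference could be set against a spread between replicates. Both the medium and the treatment differed from the 0 hr group, and in comparisons with it the effects of these cannot be told apart. From 16 hrs SB to 16+12 hrs, the added Dox, the end of the SB step and 12 more hrs in culture changed together. Their effects cannot be told apart either.

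In the Dlk1-Dio3 region the protein-coding genes Dlk1, Rtl1 and Dio3 are expressed from the paternal chromosome, whereas the noncoding RNAs Meg3, Rian and Mirg and the miRNAs on the same strand are expressed from the maternal chromosome. Many of these miRNAs are abundant in ES cells, brain and placenta. A miRNA hairpin is cut into a duplex of a 5p and a 3p strand, of which usually one is loaded onto Argonaute and kept while the other is degraded. The loaded strand finds its targets mainly through the seed, bases 2 to 8 from its 5′ end.

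On the GRCm38 build, in the GENCODE annotation, all 6 hairpins were on the plus strand of chromosome 12, within 22716 bases (chr12:109563692-109586407). Mir770 (chr12:109563692-109563785) was inside Meg3, in an exon of 1 Meg3 transcript and in introns of 3 others. Mir673 (chr12:109571990-109572080) began 263 bases past the annotated end of Meg3. Mir493 (chr12:109580233-109580315) lay 8152 bases further on, outside any other annotated gene. Mir337 (chr12:109585789-109585885), Mir540 (chr12:109586080-109586146) and Mir665 (chr12:109586314-109586407) lay together within 619 bases. Mir337 overlapped Mir3544 on the opposite strand, and Mir665 ended 2785 bases before Rtl1, which is read from the minus strand.

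The 12 mature sequences, printed from the RefSeq entries on GRCm38.p6 (all 12 matched by name), are shown because the seed sets which transcripts a miRNA can pair with. Capitals mark the seed.
miR-770-5p: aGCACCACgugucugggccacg
miR-770-3p: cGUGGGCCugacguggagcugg
miR-673-5p: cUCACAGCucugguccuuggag
miR-673-3p: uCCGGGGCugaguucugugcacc
miR-493-5p: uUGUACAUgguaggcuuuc
miR-493-3p: uGAAGGUCcuacugugugccagg
miR-337-5p: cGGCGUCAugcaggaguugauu
miR-337-3p: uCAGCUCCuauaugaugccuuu
miR-540-5p: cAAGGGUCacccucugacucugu
miR-540-3p: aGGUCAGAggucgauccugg
miR-665-5p: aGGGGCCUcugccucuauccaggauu
miR-665-3p: aCCAGGAGgcugaggucccu
No seed occurred more than once among the 12 miRNAs, including the 2 arms of each hairpin. None of the seeds was shared with another listed miRNA, among the 516 of the 693 that could be matched to RefSeq by name. Of the miRNAs that were not listed, miR-6985-3p carried the seed of miR-673-5p and miR-6915-5p that of miR-540-3p. None of the 12 mature sequences occurred in a hairpin other than its own, so reads that match a whole mature sequence have 1 source. The mature forms were 19 to 26 bases long with a GC content of 40.9% to 72.7%, and began with U, A and C in 4 miRNAs each. The shortest, miR-493-5p, was below the 20 to 30 nt fraction cut from the gel for these libraries.

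The sequences of 5 hairpins, again from RefSeq, are shown because their arms are compared in the results. Capitals mark the 5p arm first and the 3p arm second.
miR-337: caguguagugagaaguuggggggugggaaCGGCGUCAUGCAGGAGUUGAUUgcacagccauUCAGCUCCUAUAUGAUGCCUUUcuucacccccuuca
miR-540: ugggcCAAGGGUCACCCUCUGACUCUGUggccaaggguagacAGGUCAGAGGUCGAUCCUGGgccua
miR-665: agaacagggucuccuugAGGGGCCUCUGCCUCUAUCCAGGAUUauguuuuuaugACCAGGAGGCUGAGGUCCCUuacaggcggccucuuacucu
miR-770: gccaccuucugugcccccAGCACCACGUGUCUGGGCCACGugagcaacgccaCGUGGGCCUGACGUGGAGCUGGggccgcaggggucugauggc
miR-493: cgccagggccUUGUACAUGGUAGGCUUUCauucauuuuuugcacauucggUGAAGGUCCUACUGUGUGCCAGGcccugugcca
The predicted folding energies of the 6 hairpins lay between -58.2 kcal/mol for miR-770 and -40.9 kcal/mol for miR-540.

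Every deposited value was a whole number of reads times the value of 1 read, which gives totals of 10955686, 11354692 and 9895513 reads in the order 0 hr, 16 hrs SB, 16+12 hrs. Values given in threes keep that order. Reads on listed miRNAs made up 28.3%, 24.1% and 33.4% of these totals. The 12 miRNAs held 12864, 7695 and 11945 reads, which was 0.415%, 0.281% and 0.362% of the reads on listed miRNAs. Of 24 arms of the miR-290 to miR-295, miR-302 and miR-367 hairpins, which define ES cells, 23 were listed, and they held 28.9%, 27.0% and 28.1% of the miRNA reads. In rpm they summed to 81887, 65207 and 93843, lower with SB and then higher. At 16 hrs SB, 8 of the 23 were lower than at 0 hr and 5 higher, beside 30.2% and 15.3% of all listed miRNAs. Of 22 miRNAs known from fibroblasts, which can be feeder cells, all were listed and none was at 0. They summed to 3113, 8082 and 3449 rpm, of which miR-21-5p held 37.2%, 30.8% and 59.2%. Against 0 hr, 18 of the 22 were higher in the SB library, beside 15.3% of all listed miRNAs. From 16 hrs SB to 16+12 hrs, 18 were lower and 2 higher, beside 17.9% and 41.7%, and 17 did both, higher and then lower, beside 9.67%. For 16+12 hrs over 0 hr the sum had a log2 ratio of 0.15, but the median of the 22 was -0.68, with 10 lower and 4 higher. In both steps this list moved opposite to the sum of the 12 miRNAs described next, and its part in their differences was not tested. In such bulk RNA, fewer cells of a type and less RNA per cell cannot be told apart.

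Levels are reads scaled to 1000000 reads of the library (rpm). A miRNA was called lower or higher by the criteria of the study, which ask for a log2 ratio of 0.32 or more in size and a Z-score past the two-sided 5% point of the normal distribution. Such a call sets 1 library against another and not 1 condition against another. Intervals in brackets are at 95% and hold counting error alone, because each group was 1 library. PCR copies of 1 molecule were not told apart, so the intervals may be too narrow even for that error. Ratios are on the log2 scale, without a pseudocount. The level of 1 miRNA against another also carries the efficiency with which each sequence takes up the adaptors, which was not measured.

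The sum of the 12 miRNAs was 1174 [1154, 1195], 677.7 [663, 693] and 1207 [1186, 1229] rpm. It was therefore lower in the SB library than in either of the others. Its log2 ratio to 0 hr was -0.79 [-0.83, -0.75] in the SB library, and the Dox library stood above the SB library by 0.83 [0.79, 0.87]. The Dox library was above the 0 hr library by 0.04 [0.004, 0.076] in rpm, but below it by -0.14 to -0.26 in 5 other scalings. These comparisons share libraries, so they are not independent. miR-665-3p alone held 56.1%, 47.3% and 49.7% of the reads of the 12. Without it the sum was 515.1, 357.1 and 607.3 rpm, and the 3 log2 ratios were -0.53, 0.77 and 0.24.

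By the criteria, 7 of the 12 miRNAs were lower with SB than in untreated cells, where 30.2% of all listed miRNAs were lower. None of the 12 was higher, against 15.3% of all listed miRNAs. At 16+12 hrs, 6 were higher than at 16 hrs SB, where 41.7% of all listed miRNAs were higher, and 1 was lower, against 17.9%. The 12 miRNAs had a median log2 ratio of -0.58 in the first comparison and 0.66 in the second, beside -0.19 and 0.38 over all listed miRNAs. Scaled to the reads on listed miRNAs, these medians were -0.35 and 0.19 for the 12 and 0.04 and -0.09 over all listed miRNAs, and 5 of the 12 were higher at 16+12 hrs over 16 hrs SB, beside 23.5% of all listed miRNAs. Between 16+12 hrs and 0 hr, 3 of the 12 were higher and 2 lower, beside 30.6% higher and 19.8% lower of all listed miRNAs, with medians of -0.15 and 0.19. In 5 other scalings this split was 2 or 3 higher and 4 to 6 lower, beside 19.2% to 24.4% higher and 24.2% to 31.3% lower of all listed miRNAs. The p-Smad2/3 activation profile, lower at 16 hrs SB and then higher at 16+12 hrs, was met by 5 of the 12 (miR-673-5p, miR-337-5p, miR-540-5p, miR-540-3p and miR-665-3p), beside 20.9% of all listed miRNAs. The opposite profile, higher and then lower, was met by 0 of the 12, beside 9.67% of all listed miRNAs. Only 3 of the 5, miR-673-5p, miR-540-3p and miR-665-3p, met the profile under each of 5 other scalings of the libraries. With a filter of at least 100 reads summed over the libraries, 458 listed miRNAs and 10 of the 12 were kept. Of these 10, 7 were lower at 16 hrs SB, 6 then higher at 16+12 hrs, and 5 met the profile. The shares of the 458 were 40.4%, 53.1% and 29.3%.

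**Figure D1:**
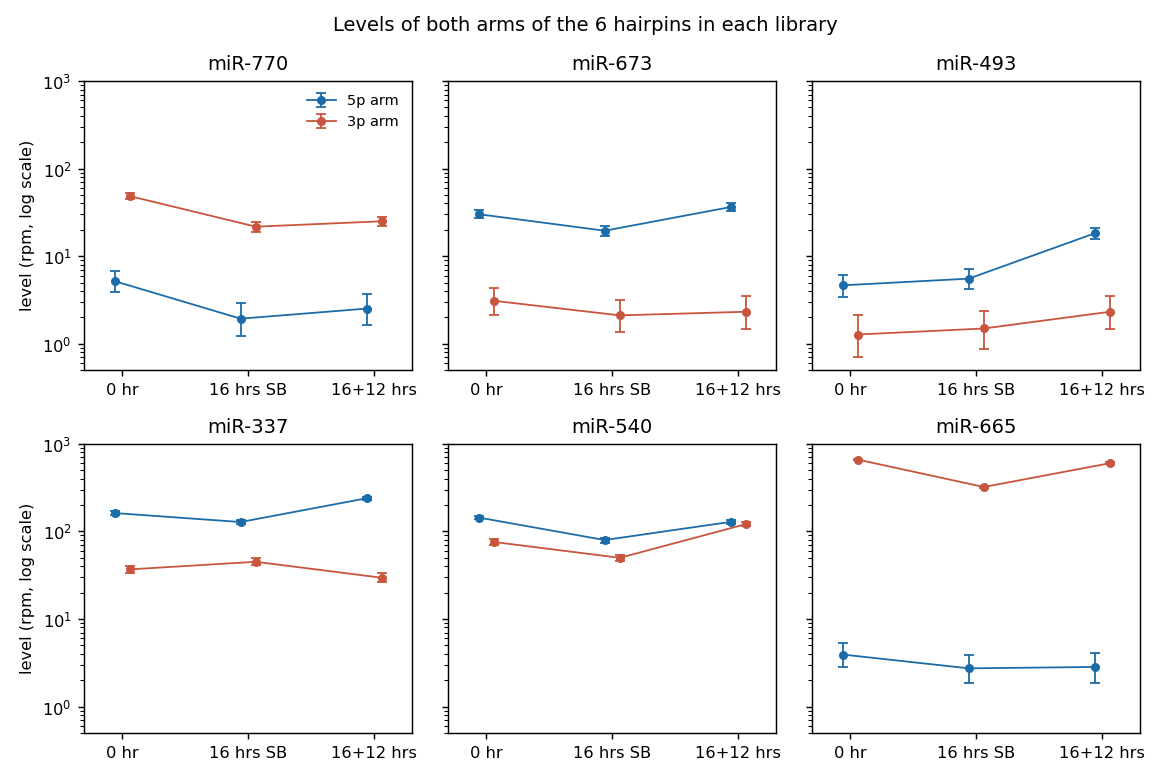
Levels of the 5p (blue) and 3p (red) arm of each of the 6 hairpins in the 3 libraries, in rpm on a log axis. Points are single libraries and bars are exact Poisson 95% intervals of the reads. miR-665-3p was the highest of the 12 in every library, at 659.1, 320.6 and 599.8 rpm, and miR-493-3p was the lowest at 0 hr and 16 hrs SB and tied with miR-673-3p at 16+12 hrs.

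miR-665 was the most abundant hairpin in each library, nearly all of it as the 3p arm. miR-665-3p was at 659.1, 320.6 and 599.8 rpm, from 7221, 3640 and 5935 reads. The SB library thus held 48.6% of the 0 hr level, a log2 ratio of -1.04 [-1.10, -0.98]. The level was then higher at 16+12 hrs by 0.90 [0.84, 0.96], and stayed below that of the 0 hr library by -0.14 [-0.19, -0.09], a difference under the fold criterion in rpm that passed as lower in 4 of 5 other scalings. The 5p arm of the same hairpin was at 3.92, 2.73 and 2.83 rpm, from 43, 31 and 28 reads. None of its 3 ratios passed the criteria in rpm, though it passed as lower at 16 hrs SB in 1 of 5 other scalings and at 16+12 hrs over 0 hr in 2 of 5. The first ratio was -0.52 [-1.24, 0.18] in rpm, and at this depth a change of the size seen in the 3p arm lay inside that interval.

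miR-540 was the hairpin with the most even arms. miR-540-5p was at 143.9, 79.5 and 128.3 rpm, from 1576, 903 and 1270 reads. Its partner miR-540-3p was at 75.7, 49.8 and 121.0 rpm, from 829, 566 and 1197 reads. Both arms were lower at 16 hrs SB, the 5p arm by -0.86 [-0.97, -0.74] and the 3p arm by -0.60 [-0.76, -0.45]. Both were then higher at 16+12 hrs, the 5p arm by 0.69 [0.57, 0.82] and the 3p arm by 1.28 [1.13, 1.43]. The arms therefore ended on different sides of the untreated level. miR-540-3p was above it by 0.68 [0.55, 0.81], whereas miR-540-5p was below it by -0.16 [-0.27, -0.06], under the fold criterion in rpm and past it in all 5 other scalings. The higher call of miR-540-5p at 16+12 hrs was kept in 2 of the 5 other scalings and that of miR-540-3p in all 5.

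For miR-337 the arms had log2 ratios of opposite sign in all 3 comparisons. miR-337-5p was at 161.7, 127.7 and 238.7 rpm, from 1772, 1450 and 2362 reads. It was lowest in the SB library and highest after Dox, with log2 ratios of -0.34 [-0.44, -0.24] and 0.90 [0.81, 1.00] for the 2 steps and 0.56 [0.47, 0.65] for 16+12 hrs over 0 hr. miR-337-3p was at 36.8, 44.9 and 29.5 rpm (403, 510 and 292 reads), highest in the SB library and lowest after Dox. Its ratio of 16 hrs SB over 0 hr was 0.29 [0.10, 0.48], a fold of 1.22 that was just under the criterion. Its ratio of 16+12 hrs over 16 hrs SB was -0.61 [-0.82, -0.40], the 1 lower call among the 12 miRNAs in that comparison. Against 0 hr the 16+12 hrs level of miR-337-3p was at -0.32 [-0.54, -0.10], under the fold criterion in rpm and past it in all 5 other scalings. The SB difference passed as higher in 4 of the 5 other scalings and the Dox difference as lower in all 5. For miR-337-5p the lower call at 16 hrs SB was kept in 1 of the 5 scalings, the higher call at 16+12 hrs over 16 hrs SB in all 5, and that over 0 hr in 3 of the 5.

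miR-770, the hairpin inside Meg3, was lower at 16 hrs SB and was not called higher at 16+12 hrs. miR-770-3p was at 48.7, 21.8 and 25.1 rpm, from 533, 247 and 248 reads. miR-770-5p followed at 5.20, 1.94 and 2.53 rpm, from 57, 22 and 25 reads. Both arms stood highest in the untreated library and close to each other in the 2 treated ones. Over 0 hr, the SB library was at -1.16 [-1.38, -0.94] for the 3p arm and -1.43 [-2.21, -0.69] for the 5p arm. The Dox library was above the SB library by 0.20 [-0.06, 0.46] and 0.38 [-0.50, 1.28] in rpm, and neither difference passed the criteria. The sign of these last 2 ratios depends on the scaling, being above 0 in 1 of 5 other scalings for the 3p arm and in 3 of 5 for the 5p arm. Against 0 hr, the 16+12 hrs library was lower, at -0.96 [-1.18, -0.74] for miR-770-3p and -1.04 [-1.78, -0.34] for miR-770-5p, and both calls were kept in all 5 scalings.

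miR-493 had its highest level after Dox and no lower level in the SB library. miR-493-5p was at 4.66, 5.55 and 18.3 rpm, from 51, 63 and 181 reads. The 16+12 hrs level was 3.30-fold that of 16 hrs SB, a log2 ratio of 1.72 [1.30, 2.16], and 3.93-fold that of 0 hr, a ratio of 1.97 [1.52, 2.45]. These were the largest increases among the 12 miRNAs, and both calls were kept in all 5 other scalings. The ratio of 16 hrs SB over 0 hr was 0.25 [-0.30, 0.82]. miR-493-3p was at 1.28, 1.497 and 2.32 rpm, from 14, 17 and 23 reads, and none of its ratios passed the criteria. Its ratio of 16+12 hrs over 0 hr was 0.86 [-0.16, 1.93], an interval that reaches from a slightly lower level to nearly the change of the 5p arm.

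miR-673 lies next to miR-770 but was higher again after Dox. miR-673-5p was at 30.2, 19.6 and 36.5 rpm, from 331, 222 and 361 reads. The SB library was the lowest, with a log2 ratio of -0.63 [-0.88, -0.38] to 0 hr, and the 16+12 hrs library was above it by 0.90 [0.65, 1.15]. The 16+12 hrs library was 0.27 [0.05, 0.49] above 0 hr, a fold of 1.21 that did not pass the criteria and kept its sign in 4 of 5 other scalings. miR-673-3p was at 3.10, 2.11 and 2.32 rpm, from 34, 24 and 23 reads. None of its ratios passed in rpm, and the first passed as lower in 1 of 5 other scalings. At this depth, the first 2 ratios of the 5p arm lay inside the intervals of the 3p arm, -0.55 [-1.37, 0.24] and 0.14 [-0.75, 1.02].

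**Figure D2:**
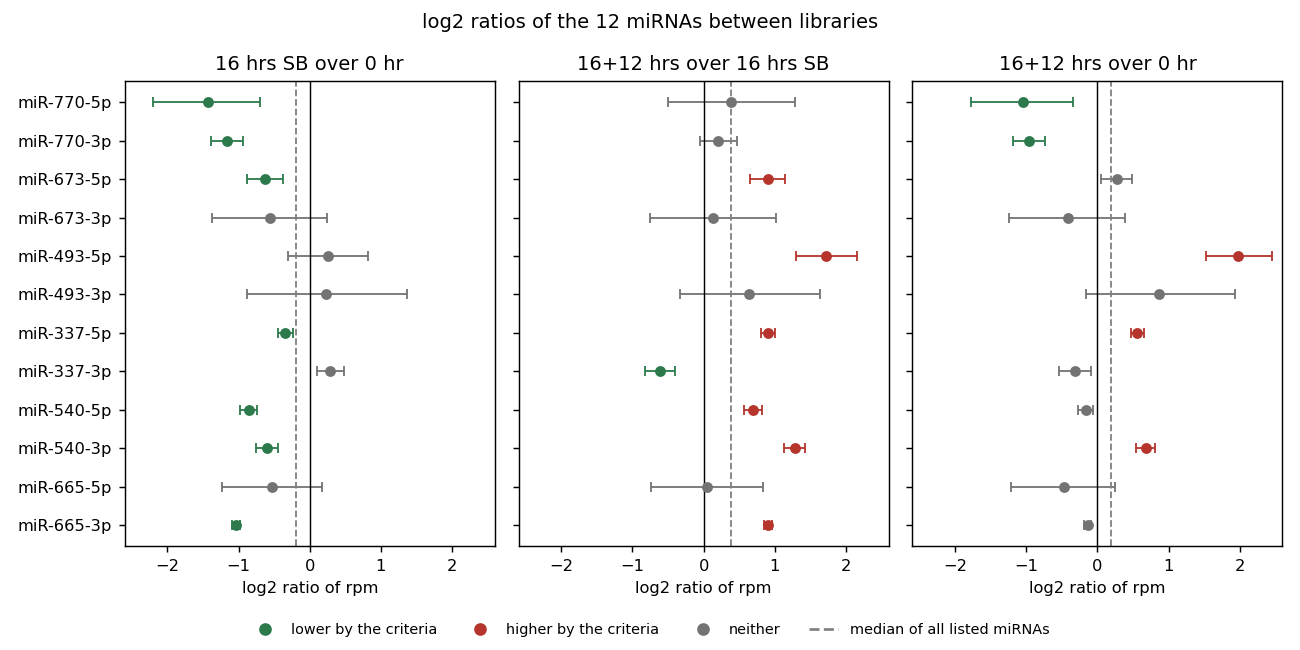
log2 ratios of the 12 miRNAs for the 3 comparisons, in the order of the hairpins from Meg3. Points are ratios of single libraries, bars are 95% intervals of the read ratio, the dashed line is the median of all 693 listed miRNAs, and colours mark the calls. The 7 lower calls at 16 hrs SB, the single lower call of miR-337-3p at 16+12 hrs over 16 hrs SB, and miR-493-5p far to the right at 1.72 and 1.97 can be read off.

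The order of the hairpins by level changed between libraries. At 0 hr the order was miR-665, miR-540, miR-337, miR-770, miR-673 and miR-493, at 663.0, 219.5, 198.5, 53.9, 33.3 and 5.93 rpm, and each was apart from the next beyond counting error. With SB miR-337 (172.6 rpm) stood above miR-540 (129.4 rpm), while miR-770 (23.7 rpm) and miR-673 (21.7 rpm) did not differ beyond counting error. At 16+12 hrs miR-337 (268.2 rpm) remained above miR-540 (249.3 rpm), and miR-673 (38.8 rpm) was above miR-770 (27.6 rpm). miR-493 was last throughout, with 7.05 and 20.6 rpm in the treated libraries, the latter 1.34-fold below miR-770.

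The share of each hairpin in the reads of the 12 miRNAs is not moved by a scaling that applies 1 factor to a whole library, as 4 of the 5 do, though quantile normalization can move it. miR-770 held 4.59% [4.23, 4.96], 3.50% [3.10, 3.93] and 2.29% [2.02, 2.57] of these reads, so its share was smaller in each later library. miR-493 held 0.505% [0.390, 0.644], 1.04% [0.825, 1.29] and 1.71% [1.48, 1.956], so its share was larger in each. Set against the other 5 hairpins, the log2 odds ratio of 16+12 hrs over 0 hr was -1.04 [-1.25, -0.83] for miR-770 and 1.77 [1.37, 2.18] for miR-493. miR-337 rose from 16.9% to 25.5% and then held 22.2%, and miR-665 went from 56.5% to 47.7% and then 49.9%. miR-673 held 2.84%, 3.197% and 3.21%, and none of its 3 odds ratios excluded 0 on the log2 scale. miR-540 held 18.7%, 19.1% and 20.7%, with intervals that excluded 0 in both comparisons with the 16+12 hrs library, by 0.14 [0.04, 0.25] over 16 hrs SB and 0.18 [0.09, 0.27] over 0 hr.

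The same holds for the share of the 5p arm within a hairpin, and 4 of the 6 hairpins, miR-673, miR-493, miR-337 and miR-540, gave more 5p than 3p reads in every library. miR-770 and miR-665 gave more 3p reads. Reads of miR-665-3p outnumbered those of miR-665-5p 168-fold, 117-fold and 212-fold. In miR-337 the 5p arm took 81.5% [79.8, 83.1], 74.0% [72.0, 75.9] and 89.0% [87.7, 90.2] of the reads. The 3 intervals did not overlap, and the log2 odds ratio of 16+12 hrs over 16 hrs SB was 1.51 [1.28, 1.74] toward the 5p arm. In miR-540 the 5p share was lower in each later library, from 65.5% [63.6, 67.4] to 61.5% [58.9, 64.0] and then 51.5% [49.5, 53.5]. The shift from 0 hr to 16+12 hrs had a log2 odds ratio of -0.84 [-1.01, -0.68], so both arms were nearly equal after Dox. These neighbouring hairpins, with 194 bases between them, both shifted toward the 3p arm at 16 hrs SB (-0.63 and -0.25 from 0 hr) and toward opposite arms from there to 16+12 hrs (1.51 and -0.59).

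The other hairpins rested on few reads of at least 1 arm. The 5p share of miR-493 was 78.5% [66.5, 87.7], 78.8% [68.2, 87.1] and 88.7% [83.6, 92.7], and its odds ratio of 16+12 hrs over 16 hrs SB, 1.09 [0.09, 2.08], only just excluded 0. The 5p share of miR-665 was 0.592%, 0.844% and 0.470%, with a log2 odds ratio of -0.85 [-1.59, -0.11] for 16+12 hrs over 16 hrs SB. For miR-673 (90.7%, 90.2% and 94.0%) and miR-770 (9.66%, 8.18% and 9.16%) no odds ratio excluded 0. Counted in this way, 2, 4 and 3 of the 6 hairpins changed in the comparisons of 16 hrs SB over 0 hr, 16+12 hrs over 16 hrs SB and 16+12 hrs over 0 hr. Over all 222 hairpins with at least 100 reads on both arms together, 36%, 56.3% and 53.2% changed by the same count. In the second comparison 38 of these hairpins had a larger odds ratio, in either direction, than miR-337 and 141 a larger one than miR-540. For 16+12 hrs over 0 hr these numbers were 83 and 95.

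**Figure D3:**
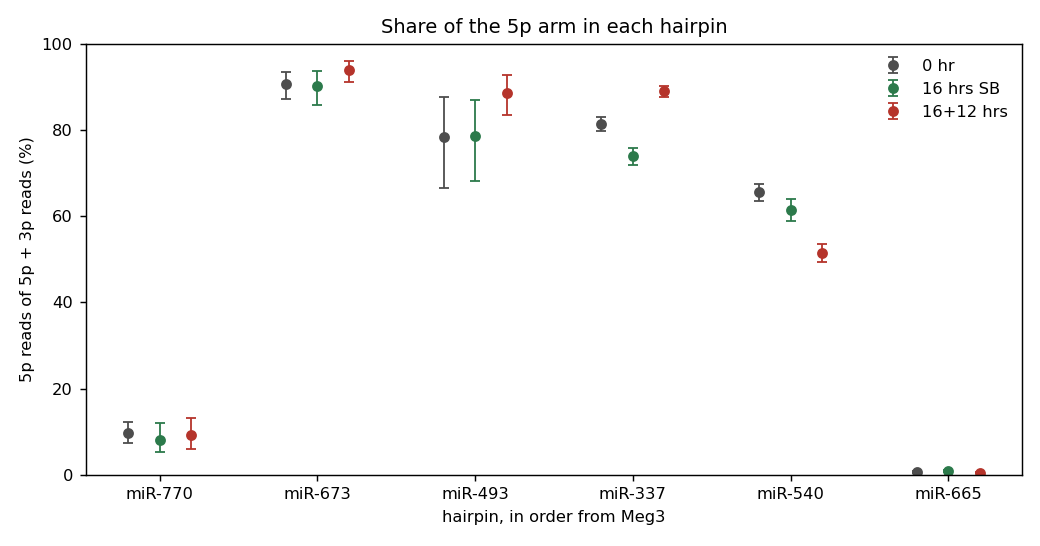
Share of 5p reads among the reads of both arms of each hairpin (%), for the 3 libraries, with exact Clopper-Pearson 95% intervals. miR-337 went from 81.5% to 74.0% and 89.0%, miR-540 from 65.5% to 61.5% and 51.5%, and miR-770 and miR-665 stayed under 10% in all libraries.

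The same strand carries further miRNAs beyond the 6 hairpins, and these were compared with the 12. The 10 listed miRNAs antisense to Rtl1, which pair perfectly with the Rtl1 transcript and of which miR-127-3p was the highest, summed to 6372, 4529 and 6450 rpm. Their log2 ratios were -0.49 in the first comparison and 0.51 in the second. The 5 listed miRNAs of Rian, led by miR-341-3p, summed to 1324, 811 and 1170 rpm with ratios of -0.71 and 0.53. The 67 listed miRNAs from miR-379 to miR-3072, led by miR-543-3p, summed to 24135, 11900 and 20732 rpm with ratios of -1.02 and 0.80. The 12 miRNAs, at -0.79 and 0.83, lay between the Rian miRNAs and the miR-379 to miR-3072 miRNAs in the first comparison. In the second they had the highest value, with an interval of [0.79, 0.87] that overlapped that of the miR-379 to miR-3072 miRNAs, [0.79, 0.81]. Both places rest on miR-665-3p, since without it the others were at -0.53 [-0.59, -0.47], between the Rtl1 antisense and the Rian miRNAs. In the second comparison they were then at 0.77 [0.71, 0.82], below the miR-379 to miR-3072 miRNAs, whose interval lay inside this one. Likewise miR-341-3p held 97.4%, 97.7% and 96.7% of the Rian reads, and miR-127-3p 49.1%, 62.8% and 65.5% of the Rtl1 antisense reads. In the order the 12, Rtl1 antisense, Rian, miR-379 to miR-3072, the median log2 ratios were -0.58, -0.38, -0.70 and -0.66 in the first comparison. In the second they were 0.66, 0.63, 0.71 and 0.50, with Rian the highest. Lower calls at 16 hrs SB were made for 7 of the 12, 5 of the 10, 4 of the 5 and 47 of the 67, beside 30.2% of all listed miRNAs. The activation profile was met by 5, 3, 3 and 31 of them, beside 20.9% of all listed miRNAs.

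Together the 94 listed miRNAs of the region summed to 33006, 17918 and 29560 rpm. The 12 held 3.56% [3.50, 3.62], 3.78% [3.70, 3.87] and 4.08% [4.01, 4.16] of the reads of the region. This share was larger in each later library beyond counting error. Against 0 hr, the 16+12 hrs sum of the 12 miRNAs was at 0.04, that of the Rtl1 antisense miRNAs at 0.018 [0.002, 0.033], that of the miR-379 to miR-3072 miRNAs at -0.22 [-0.23, -0.21] and that of the Rian miRNAs at -0.18 [-0.21, -0.14].

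**Figure D4:**
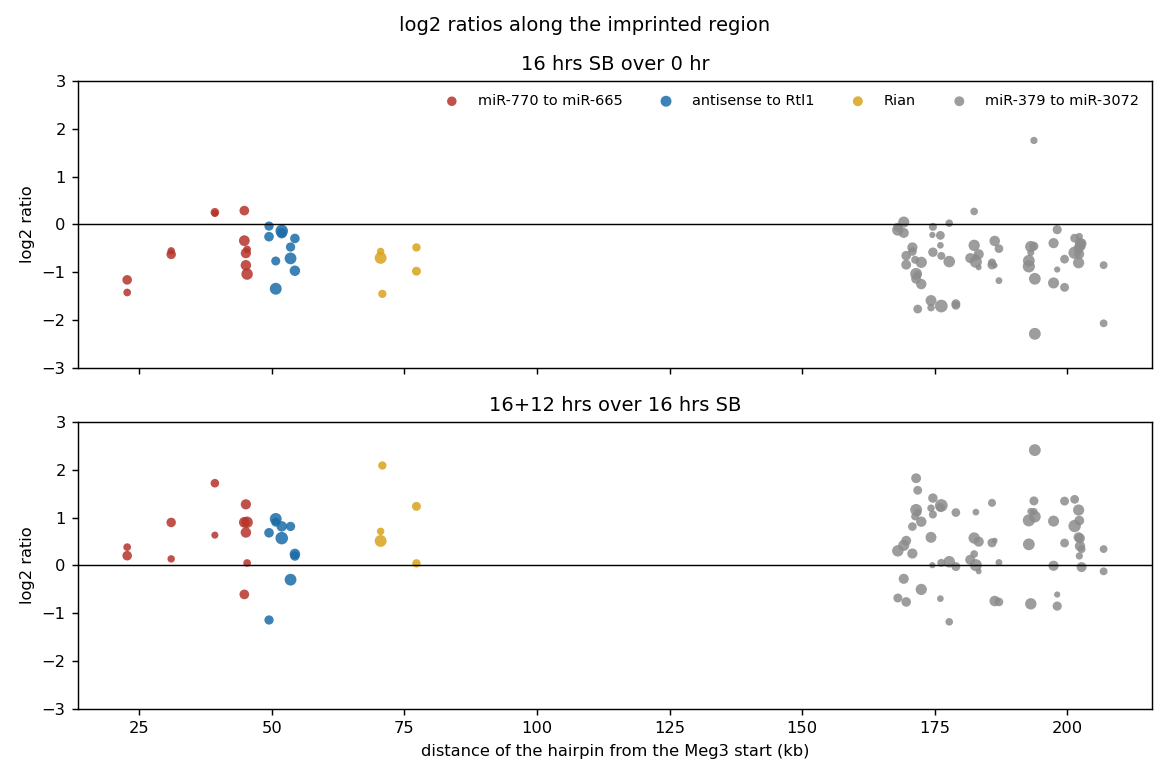
log2 ratios of the 94 listed miRNAs of the region against the distance of their hairpin from the Meg3 start in kb, for 16 hrs SB over 0 hr (top) and 16+12 hrs over 16 hrs SB (bottom). Each point is 1 mature miRNA, its area grows with the log10 of its reads over the 3 libraries, and colour marks the group. The 12 miRNAs (red, 22.7 to 45.3 kb) spread from -1.43 to 0.29 in the top panel and from -0.61 to 1.72 in the bottom panel.

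By likeness of pattern over the 3 libraries, the 5 miRNAs nearest to the sum of the 12, of 284 others with at least 100 reads in every library, were miR-92a-3p, miR-129-1-3p, miR-433-5p, miR-382-5p and miR-342-5p. Their distances, on log2 rpm centred on the mean of each miRNA, were 0.052, 0.070, 0.073, 0.082 and 0.111. miR-433-5p and miR-382-5p are also encoded in the region, antisense to Rtl1 and in the miR-379 to miR-3072 group, and the other 3 lie elsewhere. The nearest, miR-92a-3p, which is encoded in the miR-17-92 and miR-106a-363 clusters, was at 5360, 3248 and 5573 rpm.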

How the data were processed

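The authors trimmed adaptors from 36 bp Illumina GAII reads, discarded those of 16 bases or fewer, and matched the rest without mismatches (Bowtie 0.12.7) to miRBase release 18, to mature sequences and then hairpins. Reads overlapping an arm were given to it, so each value includes trimmed and shifted forms. The deposited values are rpm, reads scaled by the authors to the total reads of each library, for miRNAs with at least 10 reads in all. Here the reads behind each rpm value were recovered as whole multiples of the value of 1 read (100% of values within 0.001 read). The totals found differ from those stated in the text of the paper, and the cause was not tested.

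Ratios of rpm were taken without a pseudocount or low-value filter. Intervals were Poisson for levels, conditional binomial for ratios, Clopper-Pearson for shares and Woolf for odds ratios. There was 1 library per condition, so no p-value was computed. All 12 miRNAs were named. Neighbouring groups were given as sums with their highest member, and the 5 most alike miRNAs by Euclidean distance. The 12 miRNAs, the lists and rules were chosen with earlier results of these data known. Alternatives were 5 scalings (reads on listed miRNAs, median of ratios, TMM, quantile, miR-26a-5p), a pseudocount of 1 rpm, fold thresholds of 1.5 and 2, and a filter of 100 reads. Functions were tested on simulated reads. Hairpin positions came from GENCODE, sequences from RefSeq, folding energies from ViennaRNA 2.7.2. Python 3.11.15, numpy 2.4.6, pandas 2.3.3, scipy 1.17.1 and matplotlib 3.10.9 were used.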

Additional observations from a re-analysis of the deposited data

How the results depend on the processing

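Reads on listed miRNAs took a different share of each library, and scaling to them moves each ratio by 0.23 for 16 hrs SB over 0 hr, -0.47 for 16+12 hrs over 16 hrs SB and -0.24 for 16+12 hrs over 0 hr. With scaling to reads on listed miRNAs, median of ratios, TMM and miR-26a-5p, the log2 ratio of the summed miRNAs was -0.56, -0.61, -0.59 and -1.04 for 16 hrs SB over 0 hr, and 0.36, 0.45, 0.45 and 0.77 for 16+12 hrs over 16 hrs SB, where quantile normalization gave 0.56. For 16+12 hrs over 0 hr the 5 scalings gave -0.20, -0.16, -0.14, -0.26 and -0.21, against 0.04 in rpm, so that the sum was then below and not level with the untreated library. Without miR-665-3p, an alternative chosen after seeing the data, the 3 ratios were -0.53, 0.77 and 0.24. The activation profile was met by 3 in place of 5 miRNAs with reads on listed miRNAs, median of ratios and TMM, where 11.4%, 12.4% and 12.0% of all listed miRNAs met it in place of 20.9%. It was met by 4 with quantile normalization, beside 14.9%, and by 5 with miR-26a-5p, beside 27.7%. Lower calls at 16 hrs SB numbered 9 with miR-26a-5p, beside 42.9% of all listed miRNAs. They numbered 6 with each other scaling, beside 20.8% to 25.5%. A fold threshold of 2 moved the counts of the first 2 comparisons and the profile more than any scaling did. With it 3 were lower, 2 higher and 0 met the profile, beside 9.67%, 22.2% and 5.92% of all listed miRNAs. Lower calls at 16+12 hrs against 0 hr numbered 4 to 6 under the 5 scalings in place of 2. Of 36 single ratios, 12 to 21 moved by more than their counting interval under a scaling and 0 with the pseudocount, with which all 18 arm shares also stayed within counting error. At 14 to 57 reads a library, the 4 lowest arms gave 2 calls in 12 ratios, both for miR-770-5p. No paired analysis was possible because each condition had 1 library, and for the same reason no library could be left out.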
